A study of Mus musculus with 6 samples.

Results

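The genes described here are 10 immediate early genes of the AP-1 network and its feedback, chosen by name: Fos, Fosb, Jun, Junb, Jund, Egr1, Atf3, Ier2, Dusp1 and Zfp36. They are 10 of the 24047 gene rows of a table of raw read counts, every one had its own row, and all 10 passed the filter on low counts that left 10626 genes for testing. RNA sequencing was done on monocytes of mice with nephrotoxic nephritis, a model in which antibodies against the glomerulus injure the kidney. All mice were wild type, of the strain given as C5/Bl6, aged 8 to 10 weeks, and were killed on day 13. The series used 10 mice. One group held 3 kidney libraries, named double_pos and numbered 7, 8 and 22, from monocytes enriched with a commercial kit and sorted. The other held 3 libraries from spleen and bone marrow, named double and numbered 2, 24 and 26. The markers behind these names, the isolation of the spleen and marrow cells, and the number of mice behind each library are not given in the labels. No library came from a healthy mouse. Tissue handling is known to induce immediate early genes, and since isolation is described for kidney only, tissue and handling cannot be told apart. The p-values measure the spread between these libraries, which may be technical in part.

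Immediate early genes are transcribed within minutes of a stimulus, from promoters that existing factors such as serum response factor and CREB already occupy. Fos and Jun family proteins carry a basic region and a leucine zipper and pair to form AP-1, which binds DNA. Jun proteins pair with each other or with Fos proteins, whereas Fos proteins need a Jun partner. Egr1 is a zinc finger factor induced by the same kinases, Atf3 a stress-induced member of the wider basic zipper family, and Ier2 a short-lived nuclear protein. Dusp1, a phosphatase of MAP kinases, and Zfp36 (tristetraprolin), which marks AU-rich messenger RNAs for decay, end the response. In macrophages these last genes restrain the output of inflammatory cytokines.

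Promoter windows of 250 bases before the RefSeq start (build GRCm38.p6) were at hand for 8 of the 10 genes and are not shown for Egr1 and Ier2. The cyclic AMP response core TGACG, read on both strands, was in the windows of 5 of these 8 genes (Fos, Fosb, Junb, Atf3 and Dusp1) and in 17.9% of 27025 promoter windows of the same length. The full palindrome TGACGTCA, which contains the core on both strands, was in the window of Dusp1 and in 1.62% of all windows. The EGR motif GCGNGGGCG was in those of Fosb and Zfp36 (4.65% of all), the CArG box bound by serum response factor in that of Zfp36 (1.40% of all) and TATAAA, read on the coding strand, in that of Fos (8.12% of all). The AP-1 motif TGANTCA was in none of the 8 (6.87% of all). Only these patterns within the 250 bases were searched. Variants of a motif, such as TGACATCA in the Jun window, and sites further upstream were not counted. The 2 annotations do not always place the start alike. The Jund window belongs to a RefSeq start 1210 bases upstream of the start of Jund in GENCODE M21. GENCODE also holds longer models of Dusp1, Atf3 and Zfp36 that begin 53656, 34706 and 1025 bases upstream of the RefSeq start, and the whole Zfp36 window lies in the first exon of such a model. The nearest GENCODE transcript of these 3 genes starts 0, 7 and 27 bases from the RefSeq start. In Atf3, the last 7 bases of the window, which GENCODE places in an exon, hold its only match to the response core. The windows shown are those of the most abundant member, of its paralog and of a feedback gene, without the last 6 bases for Fosb and the last 47 for Dusp1, which GENCODE places in an exon. Capitals mark the response core, its palindrome, the EGR motif and the TATA motif, and a match is a description of the letters, not a site shown to be used.
Fos (chr12:85473640-85473889, plus strand): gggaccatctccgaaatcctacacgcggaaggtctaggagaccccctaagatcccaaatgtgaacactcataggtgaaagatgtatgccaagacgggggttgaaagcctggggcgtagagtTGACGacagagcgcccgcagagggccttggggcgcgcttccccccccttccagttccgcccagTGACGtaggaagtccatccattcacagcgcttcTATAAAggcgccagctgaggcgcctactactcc
Fosb (chr7:19310052-19310295, minus strand): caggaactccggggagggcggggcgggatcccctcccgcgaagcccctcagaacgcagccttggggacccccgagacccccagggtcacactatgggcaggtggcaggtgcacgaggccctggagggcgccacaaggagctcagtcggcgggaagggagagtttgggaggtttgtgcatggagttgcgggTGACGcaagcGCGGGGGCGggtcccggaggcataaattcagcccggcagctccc
Dusp1 (chr17:26508520-26508722, minus strand): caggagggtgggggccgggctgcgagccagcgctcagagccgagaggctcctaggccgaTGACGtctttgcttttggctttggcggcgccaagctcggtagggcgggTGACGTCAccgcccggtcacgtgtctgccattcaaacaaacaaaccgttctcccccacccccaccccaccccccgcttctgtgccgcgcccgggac
In Fos the cores begin 129 and 66 bases before the start and TATAAA 33 bases before it. In Dusp1 the palindrome begins 143 bases before the start and a further core 191 bases before it.

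Depth ranged between 3492391 and 9727489 counts. Kidney replicate 22 stood apart. It was the shallowest, had a count for 11804 genes against 13040 to 14057 in the others, and correlated with kidney replicates 7 and 8 at 0.840 and 0.838 (Pearson, log2 CPM across genes, which are not independent), where those correlated at 0.938. Its 9 neutrophil markers with a row summed to 45640 CPM (counts scaled to a common depth by the TMM library size), against 1362 and 4616 in kidney replicates 7 and 8 and 23120 to 30730 in spleen and marrow. S100a8 and S100a9 made 16140 and 13360 CPM of the sum in replicate 22. Among the kidney libraries each of these markers but Mmp8 was highest in replicate 22. Mmp8 was at 154.5, 79.5 and 139 CPM in kidney replicates 7, 8 and 22. Endothelial markers (10 of 10 with a row) summed to 31.3, 945 and 22.02 CPM in kidney replicates 7, 8 and 22 and to at most 11.8 in spleen and marrow, with Cdh5, Plvap, Ehd3 and Esam at 0 in replicate 22. Tubule markers (10 of 10) summed to 620, 260 and 1750 CPM and to at most 24.1, with Slc12a1 at 0 in kidney replicates 8 and 22. Of these kidney sums, Gpx3 alone made 444.5, 204 and 1288 CPM. Fibroblast and mural markers (10 of 10) summed to 57.2, 1240 and 44.9 CPM and to at most 14.9. Sparc alone made 40.2, 1176 and 29.7 CPM of these kidney sums, and Col1a1, Myh11 and Dcn were at 0 in kidney replicate 8. The 10 monocyte and macrophage markers had counts in every library and summed to between 33920 and 61530 CPM. Lyz2 alone made 29440 to 53870 CPM of these sums, so they are no measure of the other markers. In the edgeR test below, 6 of the 10 were higher in kidney. Lyz2 and Ly6c2 were lower (log2 fold change -0.60 and -3.11). Over all genes tested 7.83% were higher and 5.90% lower. The chi-square per degree of freedom between spleen and marrow replicates 24 and 26 was 2.95, above sampling noise but below the 23.5 to 64.6 of all other pairs within a group. They were counted as 2 samples, and the labels do not say whether they share animals.

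Egr1 was the member that rose in kidney. Of the 10 members, edgeR's quasi-likelihood test called 1 higher and 0 lower at a Benjamini-Hochberg adjusted p under 0.05, where 7.83% of the 10626 genes tested were called higher and 5.90% lower. At an unadjusted p under 0.05 the counts were 1 and 0 as well, where 15.4% of genes were higher and 12.5% lower. DESeq2, which called 11.0% of genes higher and 9.36% lower, and limma-voom, which called 6.94% higher and 7.89% lower, likewise called Egr1 higher and 0 members lower. The median log2 fold change of the 10 was 0.28, with 8 above 0, beside a median of 0.05 over all genes tested, of which 5605 were above 0. The other 9 members had log2 fold changes between -0.36 and 0.65.

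**Figure D1:**
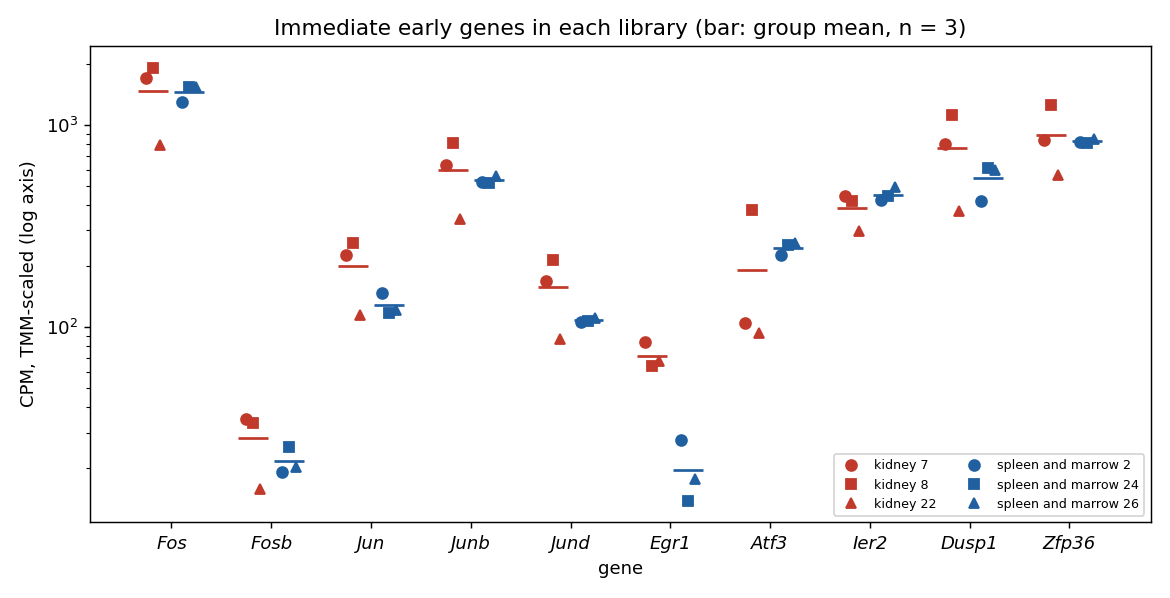
CPM of each member (log axis) in the 3 kidney libraries (red) and the 3 spleen and marrow libraries (blue), with the group mean as a bar. Egr1 is the gene whose groups do not overlap, with 64.2 to 83.8 CPM in kidney against 13.8 to 27.4 in the other group, and the kidney points of the other genes spread around those of spleen and marrow.

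Fos, the most abundant member, did not differ between the groups beyond its spread. It measured 1704, 1918 and 793 CPM in kidney replicates 7, 8 and 22 and at 1296, 1529 and 1540 CPM in spleen and marrow replicates 2, 24 and 26. Kidney replicates 7 and 8 lay above all spleen and marrow libraries and replicate 22 below them. The group means were 1472 ± 598 and 1455 ± 138 CPM (SD, n = 3 each), and the log2 fold change was 0.02 ± 0.29 (SE) with a 95% interval from -0.66 to 0.70 (edgeR adjusted p = 0.980). That interval spans folds from 0.631 to 1.62. Fosb, its close paralog, was the lowest of the Fos and Jun genes among the members by CPM, with 35.2, 33.6 and 15.9 CPM in the kidney libraries and 19.2, 25.6 and 20.3 CPM in spleen and marrow. Kidney replicate 22 was again the lowest of the 6 libraries and the groups overlapped. Its log2 fold change was 0.39 ± 0.33 (95% interval -0.37 to 1.15, edgeR adjusted p = 0.483).

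Jun and Jund were nearest to the threshold among the members that did not pass it. Jun, the classic partner of Fos, had 227, 260 and 115 CPM in kidney replicates 7, 8 and 22, compared with 147, 117 and 121 CPM in spleen and marrow replicates 2, 24 and 26. Jund, the Jun gene held to be expressed most steadily, had 168, 215 and 86.9 CPM against 106, 107 and 110 CPM. For both genes kidney replicates 7 and 8 exceeded every spleen and marrow library while replicate 22 fell under all of them. The spleen and marrow libraries of Jund lay within a coefficient of variation of 2.08%, and those of kidney varied by 41.3%. The log2 fold change was 0.65 ± 0.29 for Jun (95% interval -0.01 to 1.31, edgeR adjusted p = 0.186). For Jund it was 0.54 ± 0.29 (95% interval -0.14 to 1.22, edgeR adjusted p = 0.277). Junb, often an antagonist of Jun in growth control, was higher in level, with 633, 816 and 342 CPM against 519, 513 and 560 CPM. Its log2 difference of 0.17 ± 0.28 had a 95% interval from -0.48 to 0.82 (edgeR adjusted p = 0.742). Prdx2, which overlaps Junb on the other strand in GENCODE M21, stood at 168 to 339 CPM. The library chemistry does not mark strand, so reads in the overlap cannot be assigned to one gene.

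Egr1 measured 83.8, 64.2 and 67.8 CPM in kidney replicates 7, 8 and 22 and at 27.4, 13.8 and 17.6 CPM in spleen and marrow replicates 2, 24 and 26. Every kidney library exceeded every spleen and marrow library, a separation in this direction seen in 19.2% of all genes tested, with 18.8% separated in the other direction. The remaining 9 members overlapped. The means were 71.9 ± 10.4 and 19.6 ± 7.04 CPM (SD, n = 3 each). The log2 fold change was 1.87 ± 0.28 (SE), a 3.66-fold difference with a 95% interval from 2.33-fold to 5.76-fold (edgeR adjusted p = 0.00564). The adjusted p stayed between 0.00384 and 0.0469 on leaving out each library in turn, with log2 fold changes from 1.65 to 2.178. It was 0.0382 with spleen and marrow replicates 24 and 26 summed into 1 library, where 2.65% of genes were called higher and 1.78% lower. The Egr1 level was about even among the kidney libraries, with the highest 1.3 times the lowest. The sums of endothelial, tubule and fibroblast markers differed far more between the same libraries, and their part in the Egr1 result was not tested. In bulk samples, fewer cells of a type and less RNA per cell cannot be told apart.

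Atf3 was uneven within the kidney group. It measured 105, 379 and 93.4 CPM in kidney replicates 7, 8 and 22, while spleen and marrow lay close together at 226, 254 and 261 CPM. Kidney replicate 8 was thus above, and replicates 7 and 22 were below, every spleen and marrow library. Over all libraries the log2 fold change was -0.36 ± 0.49 (95% interval -1.50 to 0.79, edgeR adjusted p = 0.693). Without kidney replicate 8 Atf3 fell by 1.32 on the log2 scale and passed the test (edgeR adjusted p = 0.00499), where 5.38% of genes were called lower and 8.52% higher. Replicate 8 also held the largest endothelial and fibroblast marker sums, the latter mostly Sparc, and their part in the Atf3 value was not tested. Ier2 was at 446, 417 and 298 CPM in kidney against 423, 442 and 490 CPM in the other group, with no kidney library above all of the others. Its log2 fold change was -0.22 ± 0.17 (95% interval -0.62 to 0.18, edgeR adjusted p = 0.454), the narrowest interval of the 10.

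The feedback genes were among the most abundant members. Dusp1 measured 801, 1121 and 372 CPM in kidney replicates 7, 8 and 22, compared with 419, 613 and 599 CPM in spleen and marrow replicates 2, 24 and 26. Zfp36 stood at 836, 1256 and 563 CPM against 825, 815 and 855 CPM, so that spleen and marrow varied by 2.5% and kidney by 39.5% (coefficient of variation). In both genes the groups overlapped, with kidney replicate 8 the highest and replicate 22 the lowest of the 6 libraries. The log2 fold changes were 0.49 ± 0.36 for Dusp1 (95% interval -0.34 to 1.33, edgeR adjusted p = 0.420) and 0.09 ± 0.26 for Zfp36 (95% interval -0.51 to 0.69, edgeR adjusted p = 0.859). GENCODE M21 has Ergic1 overlapping Dusp1 on the other strand, and Ergic1 stood at 12.2 to 50.7 CPM (log2 fold change 1.27, edgeR adjusted p = 0.0571).

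**Figure D2:**
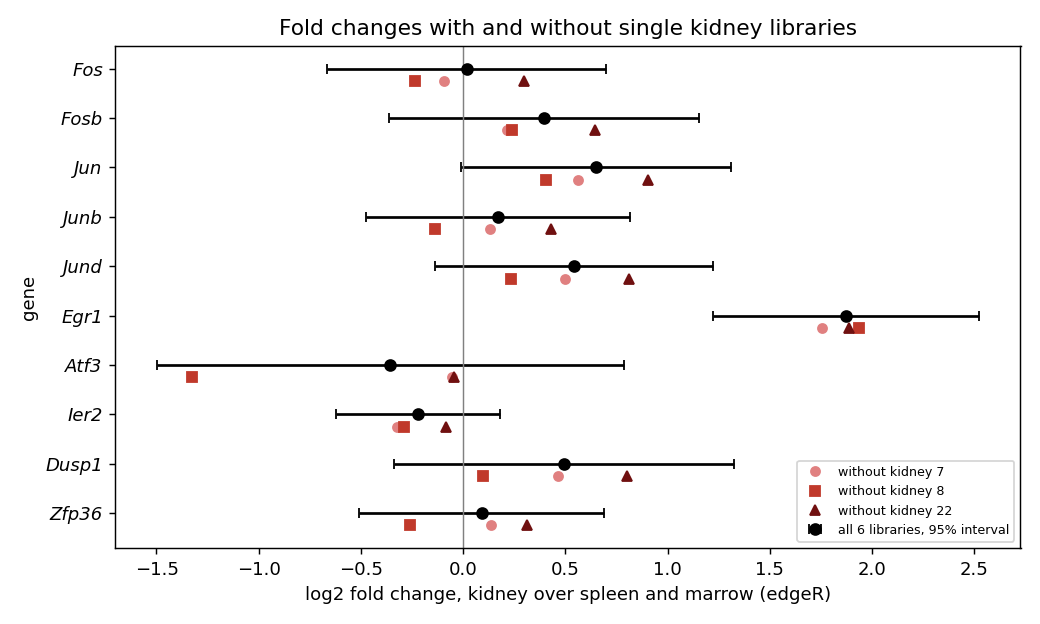
Log2 fold change of each member, kidney over spleen and marrow, from all 6 libraries with its 95% interval (black), and without each kidney library in turn (red symbols). The interval of Egr1 runs from 1.22 to 2.53 and those of the other 9 genes include 0. Atf3 without kidney replicate 8 lies at -1.32, apart from its other values.

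The other 9 genes varied more among the kidney libraries than among those of spleen and marrow, and Egr1 varied less. Over all genes tested the kidney libraries were also less alike, with pairwise correlations of 0.838 to 0.938 against 0.982 to 0.990 in spleen and marrow. Kidney replicate 22 was the lowest of the 3 kidney libraries for 9 of 10 members, all but Egr1, as for 44.6% of all genes tested. It was also the lowest of all 6 libraries for those 9, as for 35.4% of genes. Kidney replicate 8 was the highest of the 6 for 7 of 10 (Fos, Jun, Junb, Jund, Atf3, Dusp1 and Zfp36), as for 16.3% of genes. From kidney replicate 22 to 8 the log2 CPM of the members differed by a median of 1.22 (from -0.08 for Egr1 to 2.02 for Atf3), beside a median of 0.09 over all genes. Kidney replicate 8 exceeded replicate 7 by a median of 0.27 (from -0.38 for Egr1 to 1.85 for Atf3). The median from spleen and marrow replicate 24 to 26 was 0.05 (from -0.33 for Fosb to 0.34 for Egr1). From replicate 24 to 2 it was -0.03, with -0.55 for Dusp1 and 0.98 for Egr1 as the extremes. The 10 genes together took 0.536%, 0.655% and 0.268% of the counts in kidney replicates 7, 8 and 22 and 0.391%, 0.443% and 0.439% in spleen and marrow replicates 2, 24 and 26. Their summed level was 4755 ± 1883 CPM in kidney against 4337 ± 294 CPM in the other group (SD, n = 3 each). The difference was smaller than the spread of the kidney libraries (two-sided exact permutation p = 0.70, where 3 against 3 cannot go below 0.10), and without kidney replicate 8 the difference turned to -482 CPM.

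**Figure D3:**
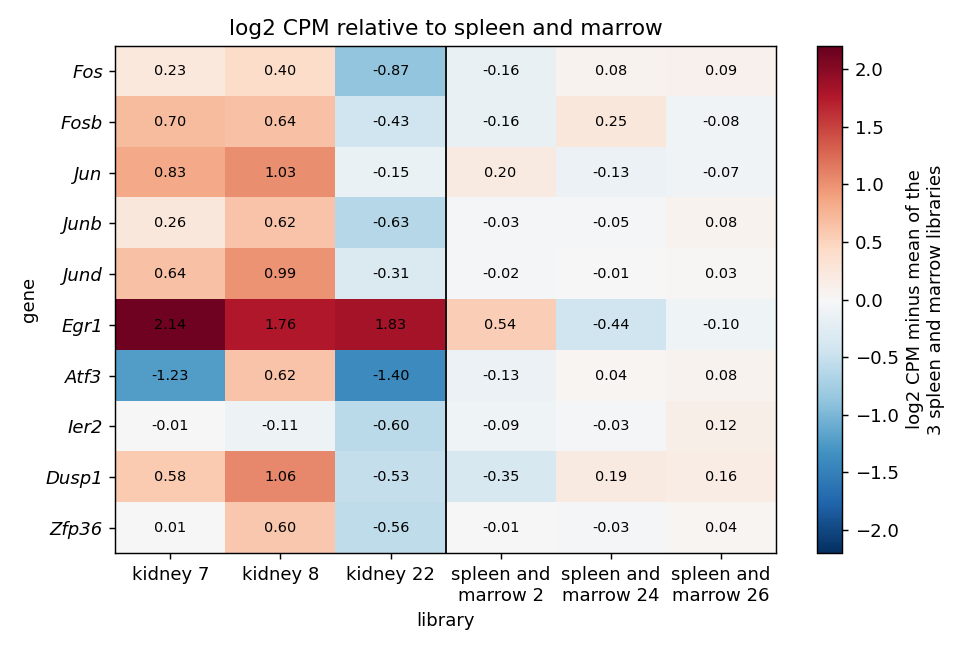
Log2 CPM of each member in each library minus its mean over the 3 spleen and marrow libraries, in colour and as a number. The column of kidney replicate 22 is below 0 for 9 genes, that of replicate 8 is above 0 for all but Ier2, and Egr1 is between 1.76 and 2.14 in the 3 kidney columns.

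The number of members called depended on kidney replicate 22. Without it, 5 of 10 rose in kidney (Fosb, Jun, Jund, Egr1 and Dusp1), where 14.3% of genes were called higher and 11.1% lower. The log2 fold changes were then 0.65 for Fosb, 0.91 for Jun, 0.81 for Jund and 0.80 for Dusp1, with edgeR adjusted p of 0.0414, 0.00736, 0.00923 and 0.0331. Fos, Junb and Zfp36 stayed without a call in that fit. Without kidney replicate 7, Egr1 remained the sole call among the members (8.15% of genes higher, 4.48% lower). The same held without spleen and marrow replicate 2 (2.57% and 1.84%), 24 (2.53% and 1.84%) or 26 (2.31% and 1.59%). Replicate 22 carried the highest neutrophil and tubule marker sums of the kidney libraries and the lowest depth. The part of depth and of neutrophil and tubule transcripts in these calls was not tested.

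The balance between members was compared as the ratio of their counts within a library, which does not depend on scaling. These 12 ratios were chosen after the values of the members were seen. Fos over Jun was 7.502, 7.37 and 6.90 in kidney replicates 7, 8 and 22 against 8.83, 13.1 and 12.7 in spleen and marrow replicates 2, 24 and 26. Kidney was lower throughout, including in replicate 22, so Jun was higher relative to Fos in all 3 kidney libraries. Jun over Junb gave 0.359, 0.319 and 0.336 against 0.283, 0.227 and 0.216, without overlap. Dusp1 over Fos was 0.470, 0.584 and 0.470 in kidney and 0.323, 0.401 and 0.389 in spleen and marrow, again without overlap. Egr1 over Fos ran from 0.0335 to 0.0856 in kidney and from 0.00904 to 0.0212 in spleen and marrow. Fos over Fosb also separated the groups, at 48.4 to 57.1 against 59.8 to 76.0. Each of these 5 ratios holds Fos or Jun, so they are not independent. Among single genes tested, 19.2% separated the groups with kidney higher and 18.8% with kidney lower. For these 5 ratios the two-sided exact permutation p was 0.10, the smallest that 3 against 3 allows, and 0.24 adjusted over the 12. In contrast Zfp36 over Fos overlapped between the groups, at 0.491 to 0.710 against 0.533 to 0.636 (exact permutation p = 0.70, adjusted 0.70). The exact permutation p of the other 6 ratios ran from 0.20 to 0.60 (adjusted 0.343 to 0.655).

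**Figure D4:**
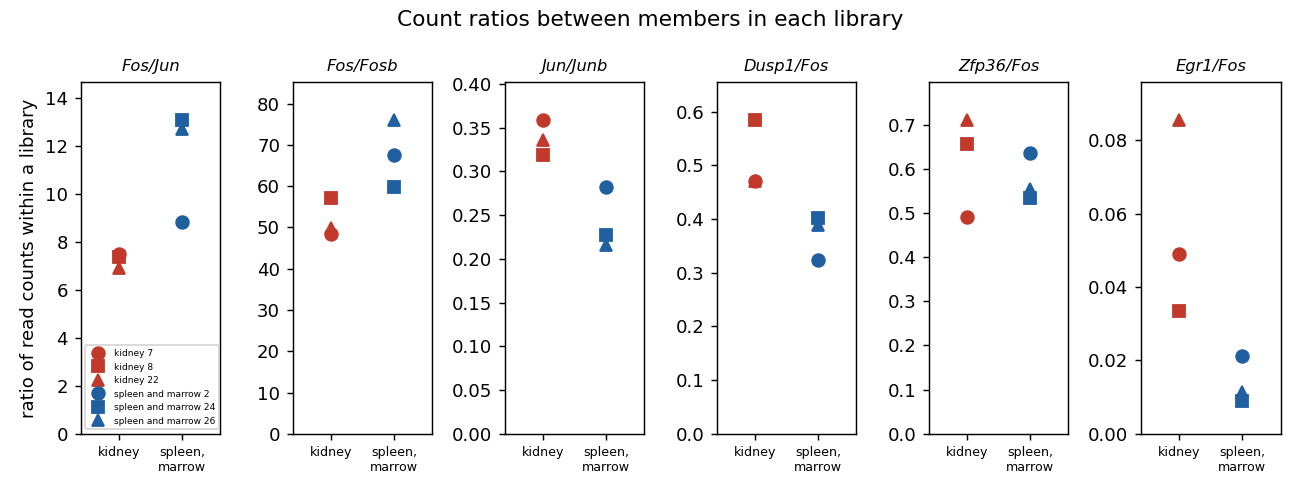
Ratio of read counts of pairs of members within each of the 3 kidney (red) and 3 spleen and marrow (blue) libraries, each panel from 0. The ratio of Fos to Jun is 6.90 to 7.502 in kidney and 8.83 to 13.1 in spleen and marrow, and the Zfp36 to Fos panel shows overlapping groups.

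Per length, on the FPKM scale deposited by the authors, the order of the members was much the same in every library. Fos was the highest of the 10 in 6 of 6 libraries, with 341, 395 and 114 FPKM in kidney replicates 7, 8 and 22 and 254, 304 and 305 FPKM in spleen and marrow replicates 2, 24 and 26. Zfp36 came next in 6 of 6, with 195 ± 103 FPKM in kidney and 186 ± 4.03 FPKM in spleen and marrow (SD, n = 3 each). The next levels in spleen and marrow were those of Dusp1 (119 ± 24.2), Ier2 (118 ± 9.19) and Junb (112 ± 5.29 FPKM), which lay within their spread of each other. In kidney Dusp1 was at 164 ± 102, Junb at 125 ± 65.8 and Ier2 at 98.2 ± 35.7 FPKM, also within their spread. Atf3 followed with 41.8 ± 39.0 and 53.9 ± 4.26 FPKM in kidney and in spleen and marrow. Jun was at 23.0 ± 11.7 and 14.9 ± 1.79 FPKM and Jund at 20.1 ± 10.8 and 14.0 ± 0.313 FPKM, neighbours that did not differ beyond their spread. Egr1, at 8.50 ± 2.03 and 2.40 ± 0.847 FPKM, and Fosb, at 2.67 ± 1.34 and 2.13 ± 0.359 FPKM, closed the order. Fosb was the lowest in 5 libraries and Egr1 in spleen and marrow replicate 24.

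The genes whose pattern over the 6 libraries was most like the mean pattern of the members were Bcap29, Pigk, Klf6, Tm4sf1 and N6amt1. Their Pearson correlations with it were 0.99, 0.99, 0.98, 0.98 and 0.98 over 6 libraries, the highest of 3735 genes with an average abundance of 5 or more (edgeR's log2 of the average CPM). This is a description, in which the gap between kidney replicates 8 and 22 weighs most. Klf6, a zinc finger factor and itself an immediate early gene, had 343, 404 and 221 CPM in the kidney libraries and 252, 275 and 291 CPM in spleen and marrow. Tm4sf1, an endothelial surface gene, was at 14.8, 227 and 0 CPM in kidney replicates 7, 8 and 22 and at 1.07 to 2.87 CPM in the other group, so it reached that abundance through kidney replicate 8.

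Beyond the members, 28 other immediate early genes were listed, of which 25 were tested. Of these, 6 rose and 0 fell (edgeR; 9 and 0 at an unadjusted p under 0.05), with a median log2 fold change of 0.55 beside 0.05 over all genes. The shares of all genes tested were 7.83% higher and 5.90% lower (15.4% and 12.5% at an unadjusted p under 0.05). Cyr61, a secreted matrix protein, had 231 counts in kidney and none in spleen and marrow, at least 98.8-fold higher against a floor of 3 counts over the group. It measured 6.04, 18.45 and 9.98 CPM in kidney replicates 7, 8 and 22. It is known to be abundant in endothelium and mesenchyme, and the part of such cells in its value was not tested. Myc, the growth regulator, rose from 7.30 ± 1.37 to 22.1 ± 1.63 CPM (SD, n = 3 each), a log2 difference of 1.59 ± 0.28 (edgeR adjusted p = 0.00983, up to 0.0738 on leaving out a library). Rhob, a small GTPase of endosomes, rose by a log2 fold of 1.16 ± 0.23 (edgeR adjusted p = 0.0150, up to 0.0871 on leaving out a library). The EGR paralog Egr2, named here after its value was seen, had 80 counts in kidney and 6 in spleen and marrow (edgeR adjusted p = 0.0166). It did not pass on leaving out any spleen or marrow library (edgeR adjusted p up to 0.113). Nr4a1, also named after its value was seen, did not pass, at 85.4, 97.3 and 42.9 CPM against 41.8, 38.0 and 40.7 CPM (log2 fold change 0.91, edgeR adjusted p = 0.0802). When spleen and marrow replicate 2, 24 or 26 was dropped, 2, 1 and 1 genes of this list rose, Cyr61 each time, and 10 rose without kidney replicate 22. In those fits, in that order, 2.57%, 2.53%, 2.31% and 14.3% of all genes rose.

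Among 18 further AP-1 and basic zipper genes, all tested, 5 rose and 1 fell (median log2 fold change 0.41). The shares of all genes tested were 7.83% higher and 5.90% lower. Maf, a large MAF factor of macrophages, rose from 6.23 ± 1.45 to 62.95 ± 22.4 CPM (SD, n = 3 each). Batf3, which pairs with Jun proteins and is needed by a class of dendritic cells, rose by a log2 fold of 2.23 ± 0.26 (edgeR adjusted p = 0.00184). Jdp2, a repressor that pairs with Jun, rose by 1.27 ± 0.22 on that scale and the stress factor Atf4 fell by 0.68, but on leaving out any spleen or marrow library neither passed (edgeR adjusted p up to 0.0734 and 0.0990). Creb5 rose too, with 97 counts in kidney against 2, but did not pass on leaving out any spleen or marrow library (edgeR adjusted p up to 0.0727). The other Fos genes did not pass, with log2 values of 0.79 for Fosl1 and 0.42 for Fosl2 (edgeR adjusted p = 0.670 and 0.449). Without spleen and marrow replicate 2, 24 or 26, 3 genes of the list rose each time, where 2.57%, 2.53% and 2.31% of all genes did.

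Of 26 other feedback genes 20 were tested, and 5 rose and 0 fell (edgeR; 7 and 0 at an unadjusted p under 0.05), with a median log2 fold change of 0.68. The shares of all genes tested were 7.83% higher and 5.90% lower (15.4% and 12.5% at an unadjusted p under 0.05). Zfp36l1, a relative of Zfp36 that also binds AU-rich RNA, measured 248, 144 and 108 CPM in kidney replicates 7, 8 and 22 and at 37.4, 44.5 and 45.2 CPM in spleen and marrow. Its groups did not overlap, unlike those of Zfp36, and it rose by a log2 fold of 1.98 ± 0.30 (edgeR adjusted p = 0.00587). The third gene of the family tested, Zfp36l2, did not pass (log2 fold change 0.09, edgeR adjusted p = 0.827). Spred1, which restrains RAS signalling, rose by 2.49 ± 0.40 and Socs3, an inhibitor of STAT signalling, by 2.11 ± 0.37 (edgeR adjusted p = 0.00737 and 0.0103, up to 0.0547 and 0.0686 on leaving out a library). Socs1, a relative of Socs3, rose by 1.90 ± 0.44 (edgeR adjusted p = 0.0262) and passed in 2 of 6 fits without a library (up to 0.131). Dusp6, a phosphatase of ERK, rose by 1.87 ± 0.34 (edgeR adjusted p = 0.0114, 0.0598 without spleen and marrow replicate 26). It was the one other phosphatase of the Dusp family called, out of 7 tested. Without spleen and marrow replicate 2, 24 or 26, 3, 3 and 1 genes of the list rose, with Zfp36l1 each time. In those fits 2.57%, 2.53% and 2.31% of all genes rose.

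Among kinases and factors upstream of the members, 31 were listed and 29 tested, and 1 rose and 0 fell (edgeR; 2 and 0 at an unadjusted p under 0.05), with a median log2 fold change of 0.14. The shares of all genes tested were 7.83% higher and 5.90% lower (15.4% and 12.5% at an unadjusted p under 0.05). Elk3, a partner of serum response factor, rose from 31.3 ± 4.21 to 74.4 ± 9.42 CPM (SD, n = 3 each), a log2 fold of 1.25 ± 0.19 (edgeR adjusted p = 0.00582). For serum response factor itself (Srf) the log2 fold change was 0.36 (edgeR adjusted p = 0.580).

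Heat shock and stress genes, which tissue handling also induces, were tested for 18 of 19 listed. Of these 4 rose and 0 fell (edgeR; 5 and 1 at an unadjusted p under 0.05), with a median log2 fold change of -0.05. The shares of all genes tested were 7.83% higher and 5.90% lower (15.4% and 12.5% at an unadjusted p under 0.05). Without spleen and marrow replicate 2, 24 or 26, 2, 1 and 1 genes of the list rose, Hspa1a each time. In those fits 2.57%, 2.53% and 2.31% of all genes rose. Hspa1a, the inducible HSP70 gene, measured 69.4, 73.4 and 70.2 CPM in kidney replicates 7, 8 and 22 and at 5.74, 2.33 and 1.93 CPM in spleen and marrow replicates 2, 24 and 26. Like Egr1 it was even among the kidney libraries (log2 fold change 4.403 ± 0.41, edgeR adjusted p = 0.00104). Its groups did not overlap, a separation in this direction seen in 19.2% of all genes tested. Hspa1b is nearly identical to it in sequence, so the split of reads between them, and with it this evenness, is uncertain. Hspa1b was uneven in kidney, at 32.6, 40.2 and 11.2 CPM against 8.50, 2.33 and 0.858 CPM. It did not pass (log2 fold change 2.85, edgeR adjusted p = 0.0547). The constitutive gene Hspa8 and the cochaperone Dnajb1 did not pass (log2 fold change 0.13 and -0.62, edgeR adjusted p = 0.762 and 0.0860). Txnip, an inhibitor of thioredoxin, rose by 1.46 ± 0.34 (edgeR adjusted p = 0.0268, up to 0.129 on leaving out a library). Ddit4, an inhibitor of mTOR induced by stress, rose by 2.33 ± 0.41 (edgeR adjusted p = 0.0105, up to 0.0684 on leaving out a library). Hspb1 had 666 counts in kidney against 2, a CPM ratio of 427 (95% exact binomial interval 118 to 3535, counting error only), and most of it lay in kidney replicate 8, at 77.6 CPM against 4.38 and 4.41 in replicates 7 and 22. Its call (edgeR adjusted p = 0.0172) was lost on leaving out any library of spleen and marrow (up to 0.0974).

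**Figure D5:**
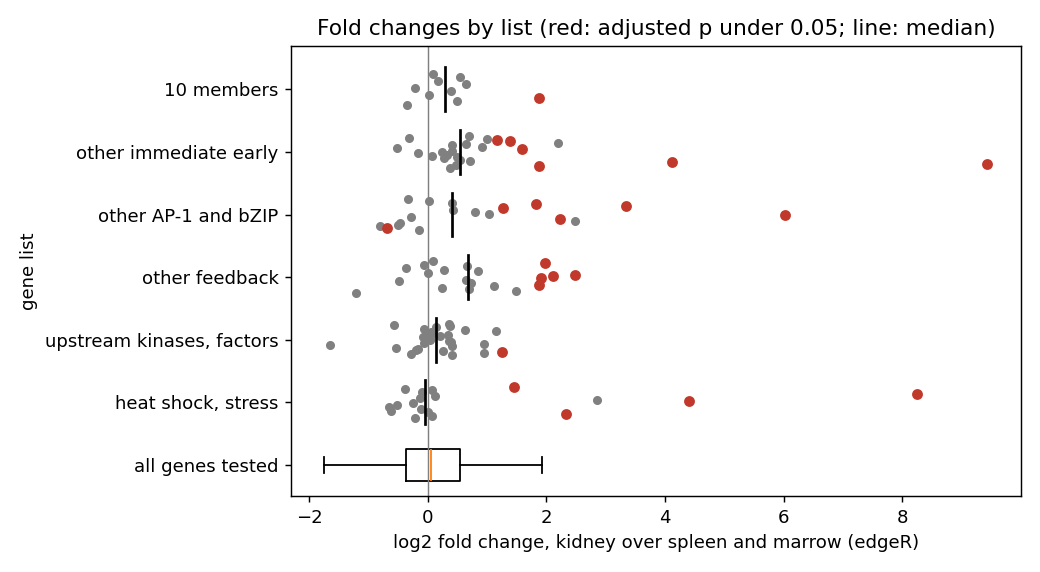
Log2 fold changes, kidney over spleen and marrow, of the tested genes of each list (points, red where the adjusted p is under 0.05; black line, median) and of all genes tested (box, quartiles, with whiskers to 1.5 times the interquartile range). The members centre on 0.28 with Egr1 apart at 1.87, and the rightmost point, Cyr61, has no count in spleen and marrow, so its fitted value is no measure of size.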

How the data were processed

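The deposited raw counts are whole numbers per gene symbol, and the deposited FPKM values were made by the authors. The submitters' processing notes name the build mm9 and the tools STAR 2.5, Cufflinks 2.2.1 and bcl2fastq 2.18, without saying what each did. Which program counted the reads, and on which annotation, is not given in the sources used here. Per the labels' protocols, SMART-Seq v4 cDNA from 2 ng of RNA was sheared to about 150 bp and made into ThruPLEX libraries, which carry no strand and no molecular identifiers.

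Counts of all genes were filtered with filterByExpr and scaled with TMM. They were tested with edgeR 4.0.16 (glmQLFit and glmQLFTest, two-sided, R 4.3.3), kidney against spleen and marrow, with Benjamini-Hochberg adjustment over the 10626 genes tested and calls at 0.05. Standard errors were taken as the absolute log2 fold change over the root of F. CPM are counts over the TMM-scaled library size, and 3 counts correspond to 0.322 to 0.881 CPM in a library. Single values were compared by exact permutation. Only the edgeR code was tested on simulated data, with the same spread assumed in both groups, although the kidney libraries varied more here.

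The members and lists were chosen with earlier results of these data known. Genes named beyond the members were, per list, up to 3 called genes per direction by smallest p, with the 5 likeness genes. Fosl1, Fosl2, Zfp36l2, Dusp6, Jdp2, Creb5, Socs1, Srf, Egr2, Nr4a1, Hspa8, Hspa1b, Dnajb1 and Txnip fall outside this rule and were chosen after their values were seen. Of the genes the rule took, 1 is not reported here. Promoter sequences are those of RefSeq on GRCm38.p6. Alternatives used DESeq2 1.42.0, limma 3.58.1, other scalings, filters and thresholds, log2(FPKM + 1) and log2(FPKM + 0.1), thinning, and leaving out or summing libraries. Figures were drawn with matplotlib 3.10.9.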

Additional observations from a re-analysis of the deposited data

How the results depend on the processing

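Egr1 stayed the one member called higher in every alternative run with all 6 libraries, with log2 fold changes from 1.49 to 2.06. On leaving out 1 library, 1 to 5 members were higher and 0 to 1 lower, and the difference in summed CPM ran from -482 (without kidney replicate 8, exact permutation p = 0.80) to 1360. Fos, Junb and Zfp36, without a call, ranged from -0.24 to 0.30, from -0.14 to 0.43 and from -0.26 to 0.31. Fos was at -0.0055 with DESeq2, -0.0091 with limma-voom, -0.0054 with median-ratio size factors and -0.030 without a filter. On log2(FPKM + 1) and log2(FPKM + 0.1), Fos was at -0.21 and -0.21, Junb at -0.023 and -0.025 and Zfp36 at -0.091 and -0.092. The median over all genes moved there from 0.05 to -0.060 and -0.14. Over all genes, 832 were higher and 627 lower. The counts were 468 and 629 on log2(FPKM + 1), 543 and 586 on log2(FPKM + 0.1), 1164 and 995 with DESeq2 and 322 and 189 at a threshold of 0.01. With spleen and marrow replicates 24 and 26 summed they were 299 and 201, and on leaving out 1 library 260 to 1569 and 179 to 1215. Other immediate early genes that rose were 3 and 3 on the FPKM scales, 2 at 0.01, 1 with the summed libraries and 1 to 10 on leaving out 1 library. Further AP-1 genes were 3 with the summed libraries and 3 to 7 on leaving out 1, and feedback genes 2 at 0.01, 3 with the summed libraries and 1 to 7 on leaving out 1. Where a library was left out or summed, fewer samples were fitted. The cause of these changes was not tested in any of the alternatives. No paired analysis was possible because the groups share no replicate number. With 3 libraries a group, the intervals of the members without a call ran from folds of 0.651 to 1.13 for Ier2, the narrowest, and from 0.354 to 1.72 for Atf3, the widest, and differences within an interval were not detectable.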

Other observations

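Of 14 listed messages whose decay the Zfp36 protein is known to promote 9 were tested, and 2 rose and 0 fell (edgeR; 2 and 0 at an unadjusted p under 0.05), with a median log2 fold change of 0.01. The shares of all genes tested were 7.83% higher and 5.90% lower (15.4% and 12.5% at an unadjusted p under 0.05). Il1b, the interleukin of the inflammasome pathway, measured 580, 933 and 547 CPM in kidney replicates 7, 8 and 22 and at 105, 51.0 and 50.7 CPM in spleen and marrow replicates 2, 24 and 26. It rose by a log2 fold of 3.32 ± 0.36 (edgeR adjusted p = 0.00149). Cd274, which encodes the checkpoint ligand PD-L1, rose by 2.70 ± 0.56 (edgeR adjusted p = 0.0184, up to 0.0994 on leaving out a library).

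Of 14 genes with AP-1 sites that act in myeloid cells or in matrix turnover 11 were tested, and 7 rose and 0 fell (edgeR; 7 and 0 at an unadjusted p under 0.05), with a median log2 fold change of 2.63 beside 0.05 over all genes, of which 7.83% were called higher. Without spleen and marrow replicate 2, 24 or 26, 4, 3 and 3 genes of the list rose, among them Il1b, Spp1 and Mmp12 each time. In those fits 2.57%, 2.53% and 2.31% of all genes rose. The list was chosen with earlier results of these data known, and it shares Il1b with the list above. The osteopontin gene Spp1 was at 1917, 1794 and 7777 CPM in kidney replicates 7, 8 and 22 and at 83.0, 20.8 and 26.5 CPM in spleen and marrow. It was highest in replicate 22, the shallowest library, where tubule markers summed to 1750 CPM and neutrophil markers to 45640 CPM. Fos and Jun were lowest in that library. The part of any of these in the Spp1 value was not tested. Mmp12, the macrophage elastase, had 232 counts in kidney against 4 (edgeR adjusted p = 0.00506).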
